A study of Mus musculus with 75 samples.

Results

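Whole-kidney RNA-seq of mice with endothelial knockout of Veptp was compared between kidneys with a ligated ureter (unilateral ureteral obstruction, UUO) and the unobstructed contralateral kidneys (CL). Members were the libraries whose genotype label is VeKO, which gave 14 of the 75 libraries of the series: 8 from UUO and 6 from CL kidneys. The VeKO mice carried floxed Veptp and a tamoxifen-inducible Cre under the endothelial Cdh5 promoter (Cdh5-CreERT2) and were given tamoxifen by gavage weeks before surgery. The 15 VeWT libraries used for comparison (8 UUO and 7 CL) came from littermates with 1 floxed Veptp allele and the same Cre that received no tamoxifen, so genotype and tamoxifen cannot be told apart. All of these mice were adults of 8 to 16 weeks on a mixed background, of both sexes, received the analgesic carprofen around surgery, and were examined 3 days after it. The contralateral kidney is the unobstructed kidney of an operated mouse, not a kidney of an unoperated one.

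VE-PTP, the protein product of Veptp (gene symbol Ptprb), is a phosphatase of endothelial cells that removes phosphate from TIE2, the receptor for angiopoietins. Its loss keeps TIE2 active, and TIE2 activity stabilises capillaries. Ureteral obstruction raises pressure in the tubules, which then lose transport functions, and it is followed by leukocyte entry and by deposition of matrix by interstitial cells. Each library samples all cells of a kidney, so fewer cells of a type and less RNA per cell cannot be told apart.

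Library totals ran from 178137 counts (C8) to 2341800 counts (H_8). Libraries have names of 2 forms: plain (E7 and B8 from CL, C8, D8, G8 and E9 from UUO) and numbered (G_1 to G_4 from CL, H_1, H_2, H_7 and H_8 from UUO). The forms differed in depth and in the share of counts on the genes Gm42418 and AY036118, which resemble ribosomal RNA (9.52% to 21.8% in plain, 0.429% to 0.778% in numbered libraries), and the form was a covariate in the fits unless stated otherwise. edgeR's exact test takes no covariate, so its counts differ from the others in both the test and the covariate. Levels are given as CPM, counts scaled to library size and normalised by edgeR's trimmed mean of M values, and 1 CPM was 0.136 counts in C8 and 2.78 counts in H_8, so low values in C8 rest on single counts. The CL library B8 stood apart with 249 CPM of Havcr1 (15.6 or less in the other CL libraries), so counts over all genes and over some lists are also given without it. Xist and Y-linked genes each reached 10 counts in B8, G_4 and G8. The numbers in numbered names were shared by a CL and a UUO library, but for numbers 3, 4, 7 and 8 the pair carries opposite genotype labels. In all 8 numbers shared in this way across both genotypes, the same one of Xist (2 numbers) and summed Y-linked genes (6 numbers) was the higher in the CL and the UUO library. The labels do not state whether a number marks 1 mouse, and for numbers 3, 4, 7 and 8 the genotype labels conflict with it. If a number did mark 1 mouse, the genotype of G_3, G_4, H_7 and H_8 would be in doubt, so counts are given without these 4 libraries too. Defining markers of proximal tubule (Slc34a1, Lrp2), thick ascending limb (Umod), endothelium (Pecam1, Cdh5) and podocytes (Nphs1) were present in all 14 libraries. Markers of neighbouring tissue varied: the summed level of adipocyte markers was highest in G_3 (562 CPM) and that of skeletal muscle markers in C8 (693 CPM), and the adrenal cortex markers Cyp11b1, Cyp11b2 and Nr5a1 were at 0 throughout.

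Ptprb, the targeted gene (mm10, chr10:116275523-116389535, plus strand), was still counted in every knockout library. It ranged from 27.3 to 46.1 CPM in the CL kidneys (median 33.6) and from 12.8 to 67.2 CPM in the UUO kidneys (median 28.7). The groups overlapped, with the highest value in E9 and the lowest in H_1. The log2 fold change was -0.43 (SE 0.25, adjusted p = 0.278), and it took the opposite sign (0.47) in plain libraries alone. In one fit of both genotypes the wild-type libraries held 28.9 to 85.2 CPM in CL and 26.6 to 94.9 CPM in UUO kidneys, which overlapped the knockout ranges of 27.3 to 45.8 and 12.9 to 67.1 CPM. The knockout medians were lower in both kidneys, at 34.2 against 62.4 CPM in CL and 28.5 against 42.5 CPM in UUO kidneys, a difference that was not tested. Within numbered libraries the knockout UUO kidneys held 12.9 (H_1), 28.0 (H_2), 21.3 (H_7) and 14.9 CPM (H_8), against 27.8 (H_3 and H_4), 26.6 (H_5) and 34.9 CPM (H_6) in the wild type. The knockout CL kidneys held 29.7 (G_1), 33.1 (G_2), 36.4 (G_3) and 35.2 CPM (G_4), against 37.7 (G_5), 62.4 (G_6), 32.1 (G_7) and 28.9 CPM (G_8). H_7 and H_8 were thus below each wild-type UUO library, whereas G_3 and G_4 were above G_7 and G_8. Counts cover the whole gene, and the sources used here do not tie them to the deleted exons, so these values do not test the deletion. The study measured protein separately, and reported less VE-PTP in knockout kidneys and more phosphorylated TIE2 in knockout UUO kidneys.

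Obstruction changed the knockout kidney broadly. Of 10713 genes tested, 792 were higher in UUO kidneys (7.39%) and 863 lower (8.06%), 15.4% in all, at an adjusted p under 0.05 by edgeR's quasi-likelihood test. The split depends on scaling: without the normalisation factors the median gene moved from 0.01 to 0.19 on the log2 scale, and 1396 genes were higher (13.0%) and 499 lower (4.66%). Without B8 the counts were 997 (9.04%) and 1065 (9.65%) of 11032 genes, and without H_7 the count of lower genes was 508. Without B8, 1587 of the 1655 called genes kept direction and call. Without G_3, G_4, H_7 and H_8 the counts were 155 higher (1.79%) and 68 lower (0.783%) of 8683 genes; all 1391 called genes with a value there kept their direction and 220 kept the call. In 68 genes every UUO library was above every CL library (0.635%), and in 51 every one was below (0.476%).

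**Figure D1:**
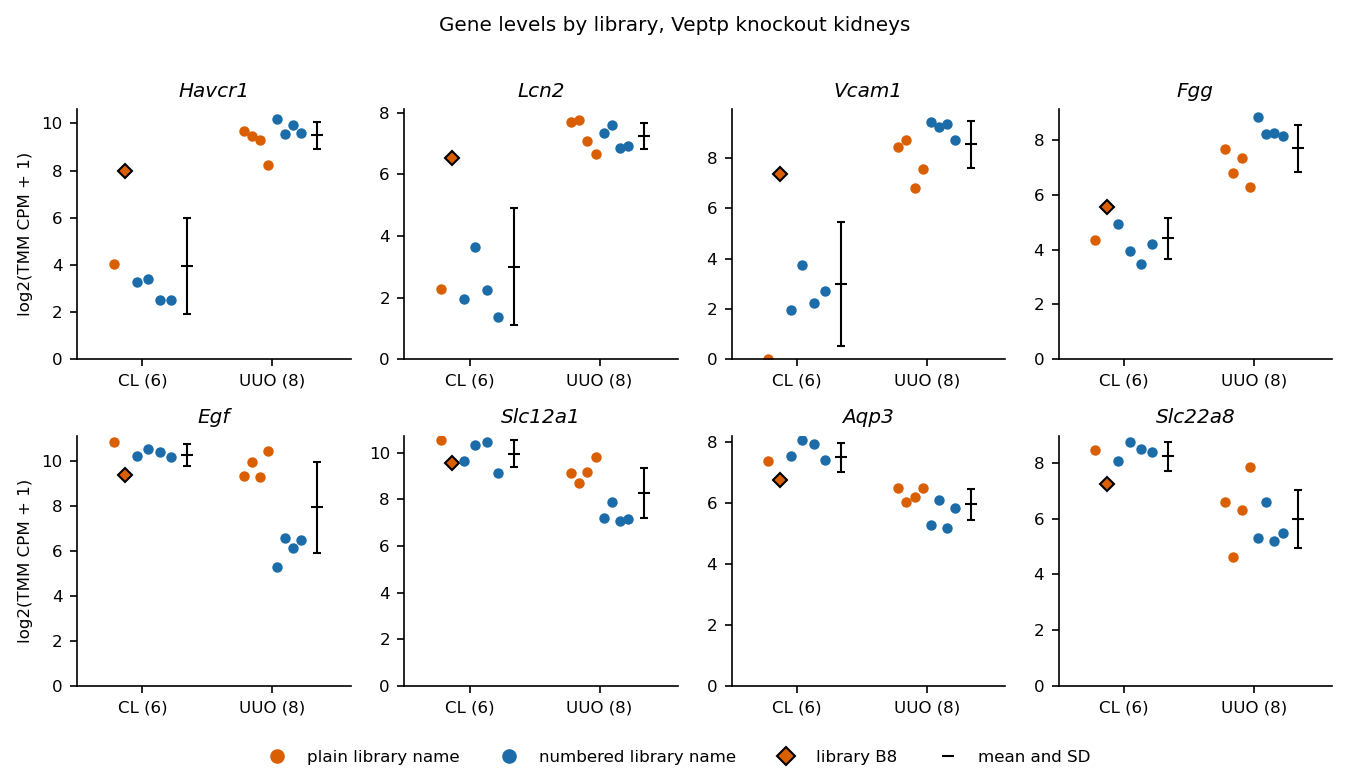
Levels of 8 genes in the 14 Veptp knockout libraries, as log2(TMM-normalised CPM + 1) on the vertical axis, for CL (6) and UUO (8) kidneys. Points are libraries, coloured by the form of the library name, the diamond is B8, and bars give mean and SD; Havcr1, Lcn2, Vcam1 and Fgg lie higher in UUO kidneys, where B8 is the highest CL library of each, and Egf and Slc12a1 fall furthest in the numbered libraries.

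Most tubular injury genes rose. Havcr1, which encodes kidney injury molecule 1 of the injured proximal tubule (chr11:46735080-46779578), ranged from 4.63 to 249 CPM in CL kidneys (median 9.14) and from 301 to 1160 CPM in UUO kidneys (median 760). Every UUO library was above every CL library, and E9 was the lowest of the UUO group. It rose by 4.82 on the log2 scale (SE 0.72, adjusted p = 0.000212), and without B8 it was 6.81. Lcn2, a secreted iron-carrier-binding protein of stressed distal tubule, rose from 1.57 to 92.1 CPM (median 3.80) to 99.1 to 217 CPM (median 148), again with no overlap and with B8 as the highest CL library (log2 fold change 3.71, SE 0.52, adjusted p = 0.000115). Of the study's panel of 8 tubular injury genes, which the study displayed for these samples and is therefore no independent evidence of direction, 8 were higher (median log2 fold change 1.11, against 0.01 over all genes). The panel includes Clu (1.36), Krt8 (0.86) and Pdgfb (1.70), the last a growth factor for perivascular mesenchymal cells. In a wider list of injured and repairing tubule, 25 of 29 tested members rose and none fell (median 1.64), and 18 of 26 rose without the 4 libraries whose number carries both genotypes, as did 4 of the 8 panel genes. The median of the wider list was 1.96 in numbered libraries and 0.94 over the 21 genes tested in plain ones.

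Cd44, Vcam1 and Krt20 were among the 12 largest rises. Cd44, a hyaluronan receptor, ranged from 0.96 to 13.8 CPM in CL (median 2.37) and from 14.3 to 113 CPM in UUO kidneys (median 65.9); the groups did not overlap, and the lowest UUO value was that of G8 (log2 fold change 5.00, SE 0.54, adjusted p = 9.66e-06). Vcam1, an adhesion molecule for leukocytes that injured tubule also makes (chr3:116109949-116129688), ranged from 0 to 161 CPM in CL (median 4.59) and from 111 to 688 CPM in UUO kidneys (median 418). B8 alone reached into the UUO range, and the 4 UUO numbered libraries were the highest (log2 fold change 4.59, SE 0.76, adjusted p = 0.000512). Gm43109 rose by 5.92, but it overlaps Vcam1 on the opposite strand over 1238 bases. No source used here gives the strand setting of the counting, and their reads cannot be told apart. Krt20, an intermediate filament keratin, rose by 5.06 (SE 0.84), from 0 to 18.4 CPM (median 0) to 6.34 to 103 CPM (median 35.9). Tnfrsf12a, the receptor for TWEAK (2.56), and the annexin Anxa3 (2.26) also rose.

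The liver-type acute phase genes of fibrinogen rose together in the kidney. The 3 chains of fibrinogen, the clotting protein, are encoded side by side on chromosome 3. Fgg ranged from 10.2 to 46.1 CPM in CL (median 18.4) and from 76.7 to 463 CPM in UUO kidneys (median 244), with no overlap (log2 fold change 3.69, SE 0.35, adjusted p = 4.29e-06). Fga ranged from 19.5 to 69.1 CPM (median 32.6) and from 73.5 to 414 CPM (median 206), also with no overlap (2.76, SE 0.31). Fgb ranged from 0 to 50.7 CPM (median 2.7) and from 36.5 to 228 CPM (median 108), and only B8 among CL libraries lay within the UUO range (4.76, SE 0.87). For all 3 the UUO numbered libraries were the highest. Fgg overlaps Gm30097 over 765 bases on the opposite strand.

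The promoters of these genes are shown because the 3 rose together from 1 locus. Windows of 250 bases before to 50 bases after the annotated start (RefSeq, GRCm38.p6) were searched on both strands for CTGGGA, the core of the interleukin-6 response element described in fibrinogen promoters, and matches are in capitals. The windows are Fgg chr3:83007474-83007773 (plus strand), Fga chr3:83025903-83026202 (plus strand) and Fgb chr3:83049814-83050113 (minus strand).
Fgg: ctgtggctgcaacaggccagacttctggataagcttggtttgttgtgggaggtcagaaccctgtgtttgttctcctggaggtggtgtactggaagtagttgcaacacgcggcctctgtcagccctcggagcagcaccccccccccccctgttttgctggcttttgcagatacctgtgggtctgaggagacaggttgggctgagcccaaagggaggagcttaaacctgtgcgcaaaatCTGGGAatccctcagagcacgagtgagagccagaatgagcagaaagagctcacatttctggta
Fga: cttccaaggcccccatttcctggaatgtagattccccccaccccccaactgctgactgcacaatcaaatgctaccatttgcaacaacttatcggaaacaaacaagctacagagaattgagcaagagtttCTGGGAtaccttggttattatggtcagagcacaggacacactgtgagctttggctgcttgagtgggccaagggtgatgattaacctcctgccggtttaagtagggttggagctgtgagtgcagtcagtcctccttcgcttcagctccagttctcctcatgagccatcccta
Fgb: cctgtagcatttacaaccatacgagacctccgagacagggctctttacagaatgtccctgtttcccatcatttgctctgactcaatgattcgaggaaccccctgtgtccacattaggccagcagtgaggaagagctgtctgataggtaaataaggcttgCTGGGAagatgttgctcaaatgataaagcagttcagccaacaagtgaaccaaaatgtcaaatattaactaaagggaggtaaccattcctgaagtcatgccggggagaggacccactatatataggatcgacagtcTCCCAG
The match began 13 bases before the start in Fgg and 121 bases before it in Fga. Fgb held 2 matches, one beginning 91 bases before the start and one on the opposite strand at the end of the window. The 6 letters were in 31.8% of 32851 promoter windows of this length on either strand, and in 17.4% on the gene's strand, so a match is a description and not a site.

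Of 15 tested complement and acute phase genes 11 rose and none fell (median 2.00, 14 of 17 without B8). The median was 1.97 in numbered libraries and 0.95 over the 11 genes tested in plain ones. C3, the central complement protein, rose by 3.60 (SE 0.64). Among chemokines and growth factors of myeloid cells 9 of 11 rose and 1 fell. Their median was 2.79 in numbered libraries and 0.72 over the 5 genes tested in plain ones. Ccl2, which draws CCR2-bearing monocytes, ranged from 0 to 13.8 CPM in CL (median 0.48) and from 0 to 92.4 CPM in UUO kidneys (median 27.0). The groups overlapped because C8, G8 and E9 lay below B8, and E9 held no count (log2 fold change 4.97, SE 0.69, adjusted p = 9.33e-05). Ccl5 ranged from 0.784 to 4.61 CPM (median 0.963) and from 9.59 to 46.9 CPM (median 27.2), with no overlap (4.20). Cxcl1, a neutrophil chemokine (4.37), Cxcl10, an interferon-induced T cell chemokine (3.57), and Csf1, the macrophage growth factor (2.63), rose as well. Cxcl12, made by stromal and tubular cells, went the other way, from 101 to 349 CPM (median 165) to 29.5 to 124 CPM (median 61.1), a fall by 1.47 on the log2 scale (SE 0.28, adjusted p = 0.00141). G8 was the highest UUO library for it and the only one to reach the CL range. Called higher without G_3, G_4, H_7 and H_8 were 4 of 12 complement and acute phase genes and 4 of 8 chemokine genes.

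Macrophage markers rose in 15 of 18 tested members, with none lower (median 1.96). The median was 2.34 in numbered libraries and 0.80 over the 8 genes tested in plain ones. Cd14, a co-receptor for lipopolysaccharide, went from 0.784 to 15.4 CPM (median 8.53) to 19.2 to 226 CPM (median 52.7), without overlap (4.12, SE 0.55, adjusted p = 4.62e-05). Ccr2, the monocyte chemokine receptor (3.39), Mrc1, the mannose receptor (2.89), and C1qb, a chain of the first complement component (2.03), rose. Adgre1, which encodes F4/80, had a log2 fold change of 1.16 and did not pass (adjusted p = 0.0858), although leaving out G_3 or H_8 brought it past the threshold. The summed level of 15 T and B cell markers ran from 17.4 to 493 CPM in CL and from 54.6 to 662 CPM in UUO kidneys, highest in B8 and D8. Of its 3 tested members Ighm rose (2.19), and no neutrophil marker was tested at these depths. Of the leukocyte panel that the study displayed, 3 of 8 genes could be tested and 2 rose, Mrc1 and Ccr2. Macrophage markers called higher were 6 of 13 without G_3, G_4, H_7 and H_8.

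Inflammatory signalling genes rose beside the leukocyte markers. In the NF-kB and TNF receptor list 12 of 16 rose and 1 fell (median 1.38), and of immediate-early and injury transcription factors 10 of 13 rose with none lower (median 1.88). In numbered libraries these medians were 1.51 and 2.08, and over the 6 genes of each list tested in plain ones 0.79 and 0.53. Nfkb2 and Relb, subunits of the alternative NF-kB pathway, rose by 1.97 and 2.61, and Birc3, an inhibitor of apoptosis that NF-kB induces, by 1.78. In the same direction Tlr2, a receptor for bacterial lipoproteins, ranged from 0 to 4.61 CPM in CL (median 3.77) and from 19.2 to 81.1 CPM in UUO kidneys (median 45.9), with no overlap and with the 4 numbered libraries highest (4.84, SE 0.45). The list member that fell was Tnfaip8, by 1.35 (SE 0.23, adjusted p = 0.000559). Jun, a subunit of AP-1 (2.46), Klf6, a zinc finger factor (2.09), Myc (3.20) and the stress factor Atf3 (4.11) were higher. The counts higher without G_3, G_4, H_7 and H_8 were 8 of 15 in the NF-kB list and 5 of 8 among the transcription factors, of which the exact test called 6 of 13.

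Antigen presentation genes rose in 14 of 15 tested members (median 1.74, none lower). The median was 2.16 in numbered libraries and 0.74 over the 11 genes tested in plain ones. Class I genes load peptides from the cytosol, and class II genes, switched on by the coactivator Ciita, load peptides taken up from outside. Ciita ranged from 0 to 11.7 CPM in CL (median 3.49) and from 14.3 to 58.6 CPM in UUO kidneys (median 30.0); the groups did not overlap (log2 fold change 3.14, SE 0.44, adjusted p = 8.39e-05). The class II chain gene H2-Aa ranged from 46.8 to 345 CPM (median 79.2) and from 246 to 473 CPM (median 386), and only B8 reached the UUO range (1.74, SE 0.33). H2-Ab1 (1.88) and H2-Eb1 (1.80) moved alike. Outside the list H2-DMb2, a subunit of a class II peptide editor, rose by 4.47. On the class I side H2-Q4 rose by 2.25 (SE 0.22, adjusted p = 4.29e-06), from 9.21 to 39.4 CPM to 32.0 to 184 CPM, with the 4 numbered UUO libraries highest. The peptide transporter gene Tap2 (1.70) and the immunoproteasome genes Psmb8 (2.17), Psmb9 (1.5) and Psmb10 (1.91) rose too. Ubd, which encodes a ubiquitin-like protein induced by interferon, rose by 5.27 (SE 0.69), from 0 to 9.21 CPM to 12.8 to 135 CPM, highest in D8. Of 20 interferon-stimulated genes 12 rose and none fell (median 1.16), but the count was 6 of 17 without H_2, 7 of 20 without G_4 and 6 of 20 by edgeR's exact test. Without G_3, G_4, H_7 and H_8, 5 of 15 interferon-stimulated and 7 of 14 antigen presentation genes were called higher.

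Promoters of class II chains are shown because Ciita, which acts at them without binding DNA itself, rose with them. The windows, RefSeq GRCm38.p6 as above, are H2-Aa chr17:34287774-34288073 (minus strand) and H2-Eb1 chr17:34305617-34305916 (plus strand). Capitals mark CTGATTGG, searched on both strands, which contains ATTGG, the reverse complement of the CCAAT core of the Y box found in class II promoters.
H2-Aa: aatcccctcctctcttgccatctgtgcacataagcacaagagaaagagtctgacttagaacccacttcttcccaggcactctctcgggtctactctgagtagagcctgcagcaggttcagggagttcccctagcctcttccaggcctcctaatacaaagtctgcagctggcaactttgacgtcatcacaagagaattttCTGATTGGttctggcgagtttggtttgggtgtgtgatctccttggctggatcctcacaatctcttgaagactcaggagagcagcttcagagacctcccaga
H2-Eb1: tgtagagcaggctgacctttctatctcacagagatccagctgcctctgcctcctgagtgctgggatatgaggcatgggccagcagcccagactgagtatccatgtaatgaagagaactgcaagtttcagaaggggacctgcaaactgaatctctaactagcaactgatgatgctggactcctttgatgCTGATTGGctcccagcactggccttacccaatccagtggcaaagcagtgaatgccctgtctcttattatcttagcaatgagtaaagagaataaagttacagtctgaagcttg
The match began 51 bases before the start in H2-Aa and 62 bases before it in H2-Eb1. These 8 letters were in 4.1% of the 32851 windows on either strand and in 1.99% on the gene's strand. H2-Ab1 is named only.

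Matrix genes rose in part. Of the study's 14 genes of extracellular matrix (ECM) modification, likewise displayed for these samples, 13 were tested, 8 rose and none fell (median log2 fold change 0.89). Col1a1, a chain of fibrillar collagen I (chr11:94936224-94953042), ranged from 12.5 to 64.5 CPM in CL (median 17.6) and from 25.6 to 289 CPM in UUO kidneys (median 141). E9 and G8, with plain names, were the lowest UUO libraries and lay below B8, and E9 also lay below G_3 (2.58, SE 0.44, adjusted p = 0.000746). Fn1, fibronectin (chr1:71585520-71653200), ranged from 22.2 to 120 CPM (median 49.3) and from 83.1 to 283 CPM (median 126), highest in H_2, with E9, H_8, C8 and D8 below B8 (1.52, SE 0.34, adjusted p = 0.00455). Col3a1 rose by 1.84 and Adamts1, a matrix protease, by 2.06. Acta2, smooth muscle actin, and Pdgfrb, a mesenchymal receptor, had log2 fold changes of 0.63 and 0.79 and did not pass (adjusted p = 0.0697 and 0.0726), and both passed without B8. Without G_3, G_4, H_7 and H_8, 3 of 13 panel genes were called, and by edgeR's exact test 4 of 13.

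Among interstitial collagens and crosslinking enzymes 10 of 19 rose and 1 fell, and the count higher was 6 of 17 without H_2. It was 3 of 13 without G_3, G_4, H_7 and H_8, and 4 of 19 by the exact test. Col8a1, a short-chain collagen (2.32), and Loxl1, a crosslinking oxidase (1.72), rose, and Pcolce, which assists collagen processing, fell by 0.63 (adjusted p = 0.0367); the call of Pcolce was lost without any one of G_2, G_3, H_1, H_2, H_7 and H_8 (adjusted p up to 0.126 without H_7), and its value was 0.19 in plain libraries alone. In the basement membrane list 7 rose and 3 fell of 20; 4 rose without G_1, 1 fell without H_1 or H_7, and without G_3, G_4, H_7 and H_8 none rose and 1 fell of 18. The exact test gave 3 higher and 2 lower of 20 basement membrane genes. The ubiquitous chain gene Col4a1 rose by 0.97 and Col18a1 by 0.99, whereas the chain genes of the glomerular and distal tubule network fell. Col4a3 dropped from 244 to 651 CPM (median 502) to 117 to 246 CPM (median 217), a fall by 1.1 on the log2 scale (SE 0.16, adjusted p = 0.000212), and the groups met only at their edges. Col4a4 (-0.74) and Col4a5 (-0.70) lost the call without single libraries: Col4a4 without H_1 or H_7 (adjusted p up to 0.06), Col4a5 without G_2, G_3, G_4, H_1, H_2, H_7 or H_8 (up to 0.105). Of matrix glycoproteins 6 of 14 rose and none fell, among them Tgfbi (1.94), Fbn1, the microfibril protein fibrillin (1.72), and Spp1, osteopontin (1.55). Of proteases and inhibitors 6 of 12 rose, with Timp1, an inhibitor of matrix metalloproteinases, at 3.91; Timp1 was at 0 or 0.784 CPM in 5 CL libraries, at 23.0 in B8 and at 12.6 to 51.6 CPM in UUO kidneys. Timp3 fell by 0.49 (adjusted p = 0.0369), a call lost without G_1, G_2, G_4, C8, H_2, H_7 or H_8 (up to 0.122). Of glycoproteins 3 of 11, and of proteases and inhibitors 2 of 10, were called higher without G_3, G_4, H_7 and H_8, and by the exact test 3 of 14 glycoproteins.

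Cytoskeletal and cell cycle genes rose in part. In the contractile and mesenchymal list 10 of 21 rose and none fell, led by Actn1, an actin crosslinker (1.67), Vim, vimentin (1.64), and Flna, filamin (1.23). In the proliferation list 21 of 29 rose and 1 fell (median 1.14). Mki67, a marker of cycling cells, ranged from 0.965 to 15.7 CPM in CL (median 8.51) and from 19.2 to 118 CPM in UUO kidneys (median 40.9), without overlap (2.28, SE 0.41, adjusted p = 0.000931). Cdk1, the mitotic kinase (2.33), and Mcm5, a subunit of the replication helicase (1.72), rose, whereas Ccnd1, cyclin D1, fell by 0.77. Of p53 targets 5 of 15 rose and none fell: Cdkn1a, which halts the cycle (2.43), Pmaip1, which promotes cell death (2.28), Btg2 (1.01), Fas (0.93) and Mdm2 (0.61). The call of Btg2 was lost without G_1, G_4 or H_1 (adjusted p up to 0.0726). Genes called higher were 4 of 19 in the contractile, 5 of 21 in the proliferation and 1 of 13 in the p53 list without G_3, G_4, H_7 and H_8, and by the exact test 4 of 21, 13 of 29 and 2 of 15.

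**Figure D2:**
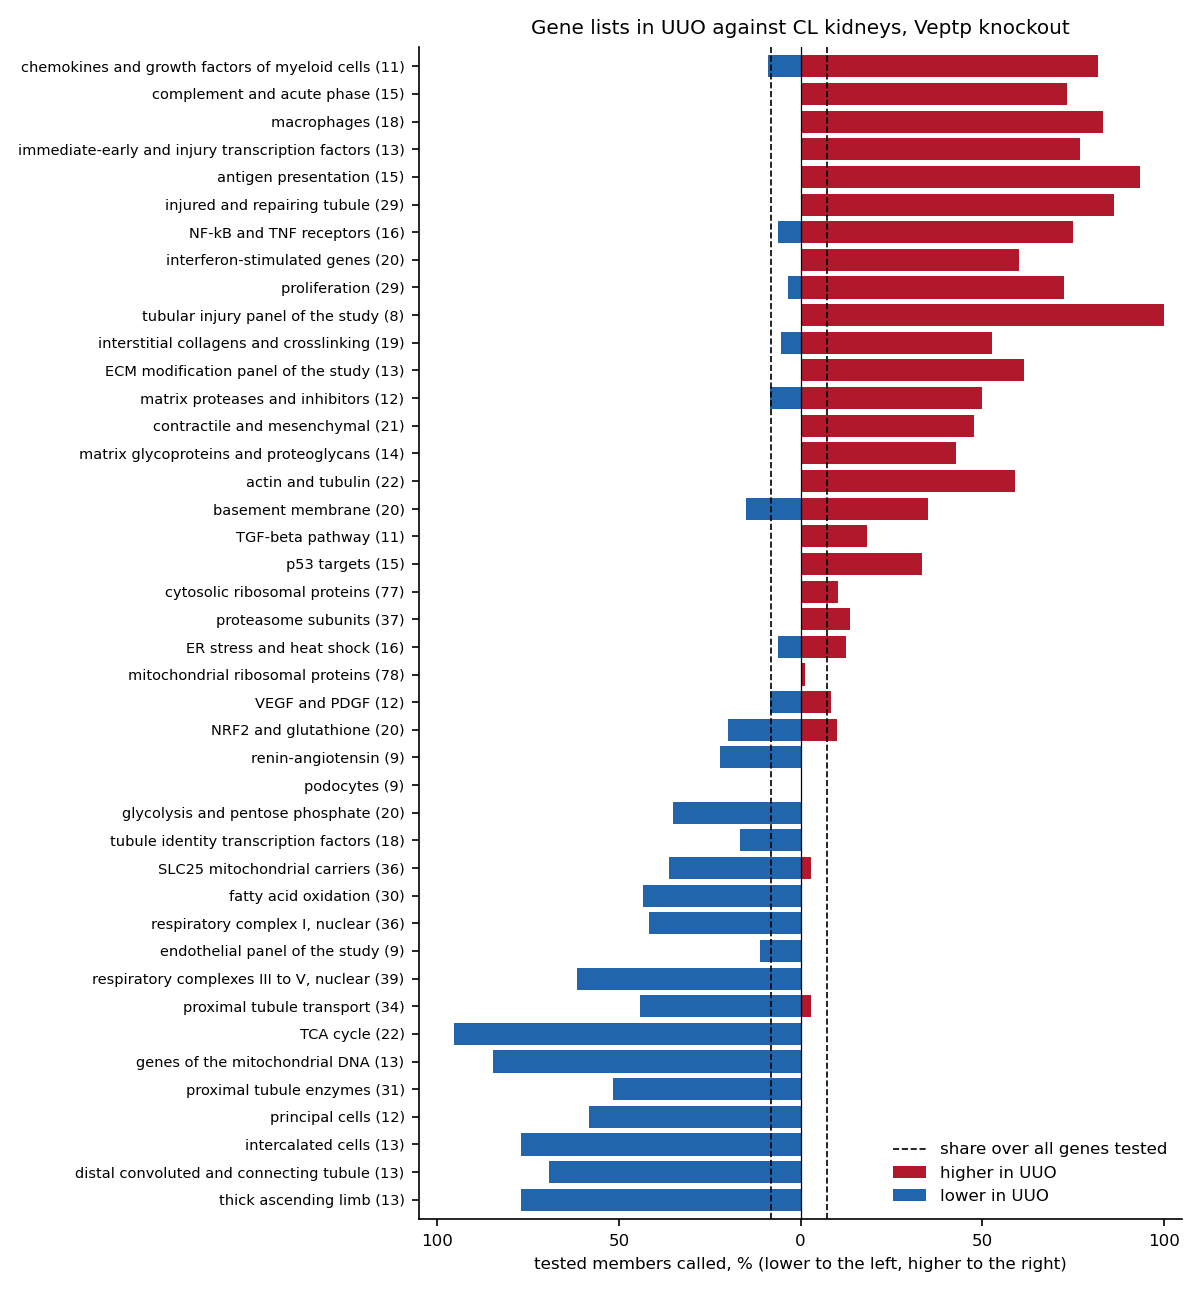
Share of tested members of each gene list called at an adjusted p under 0.05 in UUO against CL knockout kidneys, in percent, with members higher in UUO to the right and lower to the left. Dashed lines give the shares over all 10713 genes tested (7.39% higher and 8.06% lower), the number tested stands in brackets, and lists are ordered by median log2 fold change; immune and injury lists lie at the top and nephron segment lists at the bottom.

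Falls ran along the nephron. In the thick ascending limb, which reabsorbs salt and dilutes urine, 10 of 13 genes fell and none rose (median -1.69, with -2.3 in numbered libraries and -0.42 over the 11 genes tested in plain ones). Slc12a1, the salt cotransporter blocked by furosemide (chr2:125152505-125230002), ranged from 568 to 1510 CPM in CL (median 1060) and from 134 to 895 CPM in UUO kidneys (median 328). The 4 UUO numbered libraries lay at 134 to 239 CPM, below every CL library, and G8 and E9 overlapped the CL range (-2.0, SE 0.32, adjusted p = 0.000373). Egf, the growth factor of the ascending limb and distal tubule (chr3:129677565-129755316), ranged from 663 to 1850 CPM (median 1300) and from 38.3 to 1400 CPM (median 358), with the 4 numbered UUO libraries at 38.3 to 95.9 CPM and D8 and E9 within the CL range (-2.98, SE 0.57, adjusted p = 0.00149). Gm42697 (-3.04) and 6330410L21Rik (-2.80) overlap Egf on the opposite strand, so reads may be shared. Ptger3, a prostaglandin receptor, fell without overlap, from 41.5 to 194 CPM (median 79.0) to 13.7 to 35.1 CPM (median 26.0), with a log2 fold change of -2.04. Without the libraries of numbers 3, 4, 7 and 8, 5 of 13 genes of this segment were called.

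Distal and collecting segments followed. In the distal convoluted and connecting tubule 9 of 13 fell (median -1.29, with -1.63 in numbered and -0.64 in plain libraries), including Slc12a3, the thiazide-sensitive cotransporter (-1.33), the calcium-binding genes Calb1 (-2.79) and S100g (-3.01), Klhl3, which regulates that cotransporter (-1.86), and Slc8a1, the sodium-calcium exchanger (-2.10). S100g differed by name form in CL kidneys, at 1210 and 3510 CPM with plain names and 129 to 267 CPM with numbered names. Tmem52b fell without overlap, from 327 to 470 CPM (median 407) to 120 to 307 CPM (median 175; -1.17, SE 0.18). Principal cells, which take up water and sodium, showed 7 of 12 genes lower: Aqp3, the basolateral water channel, went from 106 to 267 CPM (median 176) to 35.4 to 89.5 CPM (median 66.1), without overlap (-1.70, SE 0.24, adjusted p = 0.000111). Aqp2, the vasopressin-regulated channel, fell by 1.78, but its level also differed by name form in CL kidneys, at 27.6 and 85.8 CPM with plain names and 297 to 1120 CPM with numbered names. Scnn1a, a subunit of the epithelial sodium channel, fell by 1.48 and Avpr2, the vasopressin receptor, by 1.17. Intercalated cells, which handle acid and base, had 10 of 13 genes lower (median -1.19, with -1.52 in numbered and -0.43 in plain libraries). Slc4a1, the anion exchanger of acid-secreting cells, went from 23.0 to 99.9 CPM (median 45.0) to 1.5 to 28.8 CPM (median 7.89), lowest in the 4 numbered UUO libraries (-3.29, SE 0.48, adjusted p = 0.00014). Red cells also carry Slc4a1, and the summed level of 7 erythrocyte genes was 80.0 to 410 CPM in CL and 44.3 to 957 CPM in UUO kidneys. Atp6v1b1, a proton pump subunit, fell by 1.54. Lrrc66 (-3.10) and Insrr, an insulin receptor-related kinase (-2.82), were lower in every UUO than in every CL library. With G_3, G_4, H_7 and H_8 left out, the counts lower were 2 of 12 in the distal convoluted and connecting tubule, 1 of 12 in principal cells and 2 of 12 in intercalated cells, with medians of -1.03, -0.59 and -0.95. By the exact test they were 5 of 13, 4 of 12 and 4 of 13.

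The proximal tubule, which recovers most of the filtrate, changed less evenly. Of 34 transport genes 15 fell and 1 rose (median -0.58, with -0.87 in numbered and -0.18 in plain libraries), and of 31 enzymes 16 fell and none rose (median -0.86, with -1.1 and -0.33). Without B8, 18 of 34 transport genes and 19 of 32 enzymes were lower, and 1 of each was higher. The mean log2(CPM + 1) of the enzymes was 9.257 in G_1 and 9.326 in G_4, where Y-linked genes were above Xist. It was 8.621 in G_2 and 8.515 in G_3, where Xist was above. Among numbered UUO libraries it was 7.255 in H_2, with Xist above, and 7.782 to 8.35 in H_1, H_7 and H_8. Whether sex set these levels was not tested. Slc22a8, an organic anion transporter, ranged from 152 to 437 CPM in CL (median 344) and from 23.4 to 233 CPM in UUO kidneys (median 60.6), with E9 the highest UUO library and B8 the lowest CL library (-2.19, SE 0.37, adjusted p = 0.000664). Slc6a19, a neutral amino acid transporter (-1.48), Cubn, the endocytic receptor cubilin (-0.84), Hpd, a tyrosine-degrading enzyme (-2.37), and Ass1, of arginine synthesis (-1.0), fell. Slc13a1, a sulfate transporter, was the one that rose, from 344 to 599 CPM (median 388) to 467 to 900 CPM (median 680), by 0.74 (SE 0.17, adjusted p = 0.00483). Without G_3, G_4, H_7 and H_8, 1 of 34 transport genes and none of 30 enzymes (0) were called lower, against 0.783% of all genes, with medians of -0.53 and -0.69. Without H_7, 9 of 34 transport genes fell, and edgeR's exact test called 5 of 34 transport genes and 6 of 31 enzymes lower. Of 18 tubule identity transcription factors 3 fell: Esrrb (-1.91), Esrra (-0.63) and Hnf4a, the proximal tubule regulator (-0.54). The call of Hnf4a was lost without E7, G_1, G_4, H_1, H_2 or H_7 (adjusted p up to 0.0794), and that of Esrra without G_1, G_4, H_1, H_2, H_7 or H_8 (up to 0.101); Esrra was at 0.07 in plain libraries alone. The count was 6 without B8, 5 without G_3 or E9, 1 without G_1, G_4, H_1, H_2 or H_7, 1 by the exact test and 0 of 14 without G_3, G_4, H_7 and H_8.

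**Figure D3:**
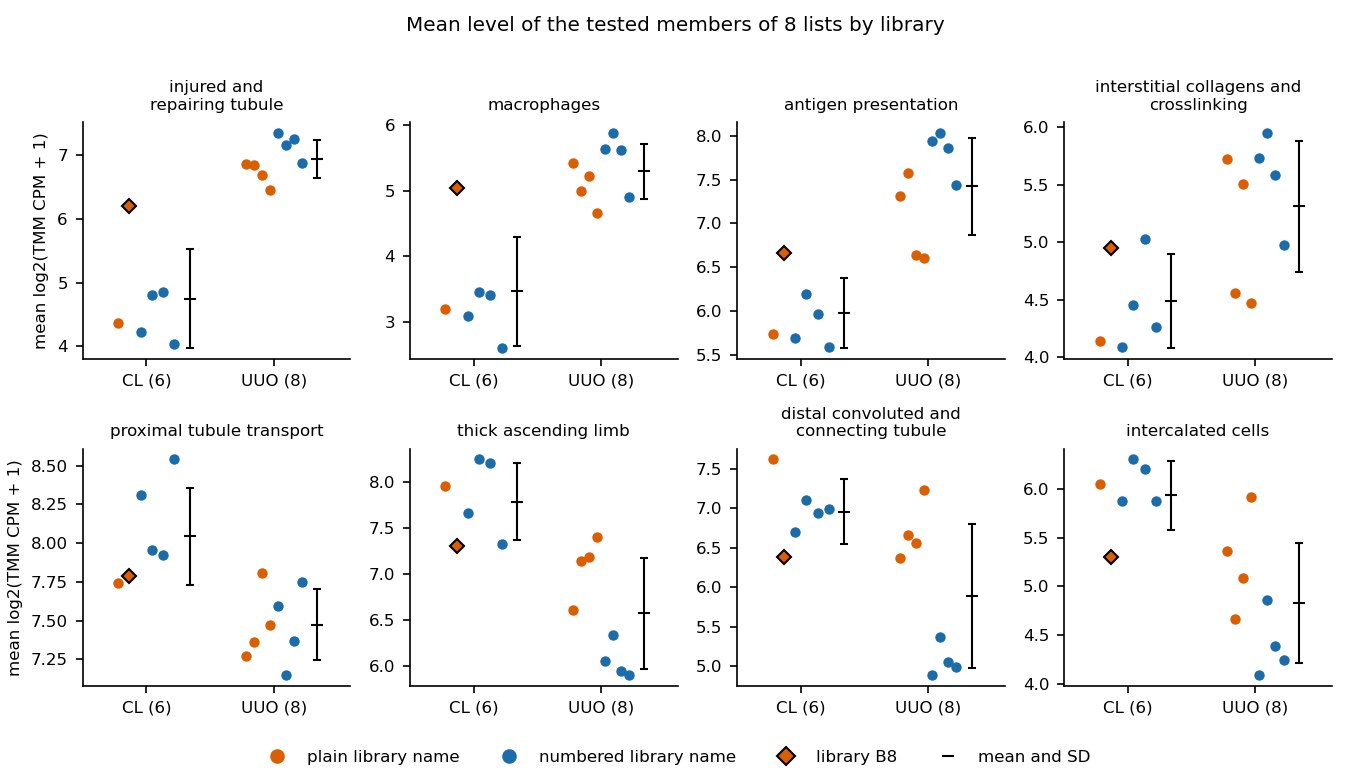
Mean over the tested members of 8 gene lists, as log2(TMM-normalised CPM + 1), in each of the 14 knockout libraries, for CL (6) and UUO (8) kidneys; vertical axes differ and do not start at 0. Points are libraries coloured by name form, the diamond is B8, and bars give mean and SD; B8 is the CL library nearest the UUO group for injury and macrophage lists, and the UUO numbered libraries lie lowest for the thick ascending limb and for the distal convoluted and connecting tubule.

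Genes of mitochondrial energy metabolism fell in part. Of 22 genes of the TCA cycle 21 fell (median -0.61, range -0.88 to -0.37). Idh2 went from 487 to 780 CPM (median 535) to 203 to 582 CPM (median 355; -0.88, SE 0.17, adjusted p = 0.00141), and Sdha, Pdha1 and Mdh1 fell by 0.78, 0.74 and 0.82. Of the 13 protein genes of mitochondrial DNA 11 fell (median -0.82). Nuclear subunits of respiratory complexes III to V fell in 24 of 39 (median -0.50) and those of complex I in 15 of 36 (median -0.46). Levels of both lists also differed by name form in CL kidneys. The mean log2(CPM + 1) of complexes III to V was 9.71 and 9.49 with plain and 7.862 to 8.346 with numbered names. For complex I it was 8.969 and 8.829 against 7.142 to 7.647. Without regard to name form, UUO minus CL means were -0.27 and -0.17, so the fitted falls rest on the covariate. Fatty acid oxidation had 13 of 30 lower, among them Acadm (-1.09) and Hadhb (-0.76). Without B8, 21 of 22 TCA cycle genes, 13 of 13 genes of mitochondrial DNA and 19 of 30 of fatty acid oxidation were lower. For complexes III to V and complex I the counts without B8 were 27 of 39 and 15 of 36. Mitochondrial ribosomal proteins had 1 of 78 higher and none lower, and 51 of 78 values were negative. These counts depend on the fit. By edgeR's exact test, which called 3.37% of all genes higher and 2.53% lower, they were 2 of 22 for the TCA cycle, 2 of 13 for mitochondrial DNA, 1 of 39 for complexes III to V, 0 of 36 for complex I and 1 of 30 for fatty acid oxidation. Without G_3, G_4, H_7 and H_8 the calls of the TCA cycle, both nuclear complex lists and fatty acid oxidation were all lost (0 in each), and 2 of 13 genes of mitochondrial DNA were called, with medians of -0.51, -0.45 (complex I), -0.48 (III to V), -0.46 and -0.72. Without H_7 alone the counts were 6 for complex I, 14 for complexes III to V, 6 for fatty acid oxidation and 6 for mitochondrial DNA, and no single library brought the TCA count below 14. Complex I had 8 or 9 without E7, G_4, H_1 or H_2, and mitochondrial DNA 6 without H_2 and 7 without H_8. Without normalisation factors the counts were 12 for the TCA cycle, 8 for mitochondrial DNA, 14 for complexes III to V, 6 for complex I and 9 for fatty acid oxidation. Without normalisation factors 25 of 77 cytosolic ribosomal protein genes were higher, against 8 with them and 0 by the exact test. The count of 8 was 2 without E7 or G_1, 4 without G_3, H_1, H_7 or H_8, and 5 without G_2 or G8. It was 12 without B8. The mean log2(CPM + 1) of these ribosomal genes in CL kidneys was 8.939 and 9.142 with plain and 6.642 to 7.213 with numbered names.

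Endothelial genes, of the cell type that carries the knockout, had few calls, as did all genes (7.39% higher and 8.06% lower). Of the 10 endothelial genes that the study displayed, 9 were tested, 1 fell and none rose (median -0.48), and 8 of the 9 values were negative. The count lower was 2 of 10 without B8, G_4 or E9 and 2 of 9 without G8. It was 0 of 8 without G_3, G_4, H_7 and H_8 (median -0.28), and 0 of 9 by the exact test or without normalisation factors. The median was -0.79 in numbered libraries and 0.08 over the 4 genes tested in plain ones. Emcn, endomucin of capillaries and veins, ranged from 29.0 to 123 CPM in CL (median 49.1) and from 25.5 to 58.6 CPM in UUO kidneys (median 29.0). Its high CL values came from G_2 and G_3, and the groups overlapped (-1.09, SE 0.34, adjusted p = 0.0312). In G_2 and G_3 Xist was above the summed Y-linked genes, and in G_1 and G_4 it was below. The call was lost without any one of G_2, G_3, H_1, H_2, H_7 and H_8 (adjusted p up to 0.0889, without G_2). Kdr, a receptor for VEGF, had a log2 fold change of -0.86 (adjusted p = 0.0567). It was called without B8 (-1.09, adjusted p = 0.00896), also without G8 or E9, and had 0.39 in plain libraries alone. Tek, which encodes TIE2, ranged from 9.21 to 94.4 CPM in CL (median 30.4) and from 0 to 34.9 CPM in UUO kidneys (median 23.8; -0.79, SE 0.36, adjusted p = 0.159). Pecam1 (-0.49), Cdh5 (-0.19), Tie1 (0.04) and Flt1 (-0.48) did not pass either, and Angpt2, the context-dependent TIE2 ligand, was below the filter. In the angiopoietin and TIE list Cav1, of endothelial caveolae, fell (-0.78, adjusted p = 0.0194), a call lost without G_2, H_1, H_7 or H_8 (up to 0.0611). It was the 1 call among 7 tested genes of that list, and without G_3, G_4, H_7 and H_8 none of 6 was called (0). Icam1, an adhesion molecule also made by tubule, rose from 3.90 to 36.8 CPM (median 25.5) to 26.9 to 206 CPM (median 113), by 2.50. With Vcam1 it made 2 of the 3 genes of endothelial activation that the study displayed. The third, Klf4, a flow-responsive transcription factor, had 0.98 (adjusted p = 0.0909) and passed without B8 (1.32, adjusted p = 0.0152) or without G8. Vegfa, made by tubule and podocytes, fell by 0.95 and Pdgfb rose by 1.70, the 2 calls among 12 genes of the VEGF and PDGF list. These calls are near the shares over all genes, and without G_3, G_4, H_7 and H_8 none of 12 was called (0). The exact test called 1 of 12 higher and 0 lower. The 9 podocyte genes tested had log2 fold changes from -0.53 to 0.64, with a median of -0.27.

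The response differed between the forms of library name. A test of that difference called 18 genes, 6 with a more positive change in numbered libraries (0.056% of 10713) and 12 with a more negative one (0.112%). Pvalb, a calcium buffer of the early distal convoluted tubule, had the lowest p: UUO plain libraries held 28.8 to 46.9 CPM, numbered libraries 0 to 0.751 CPM, and CL libraries 9.21 to 42.2 CPM. The difference was -6.97 on the log2 scale (SE 0.86, adjusted p = 0.000349), and without B8 it was the one gene still called (adjusted p = 0.0108). Over all 14 libraries Pvalb had a log2 fold change of -2.66, a call lost without H_1, H_7 or H_8 (adjusted p up to 0.0649), and it was 1.09 in plain libraries alone. Egr1, an immediate-early factor, stood at 42.9 and 50.7 CPM in the CL plain libraries and at 1.85 to 5.79 CPM in numbered libraries, while UUO libraries of both forms held 28.5 to 66.3 CPM. Havcr1, Vcam1, C3 and Fgb rose more with numbered names, by 4.81, 4.86, 3.76 and 5.77. Each of these had B8 as its highest CL library. Without B8, which leaves E7 as the only plain CL library, none was called and the differences were 1.77 for Havcr1, 0.93 for C3, 3.95 for Fgb and -4.59 for Vcam1, of which E7 held no count. Libraries with plain names alone gave no call among 5820 genes by edgeR's quasi-likelihood test, 172 higher (2.96%) and 128 lower (2.2%) at an unadjusted p under 0.05, with 2 CL libraries; numbered libraries gave 960 higher (8.38%) and 1058 lower (9.23%). Name form goes with depth and with the ribosomal RNA-like share, and whether it marks different mice, plates or preparation cannot be told apart.

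**Figure D4:**
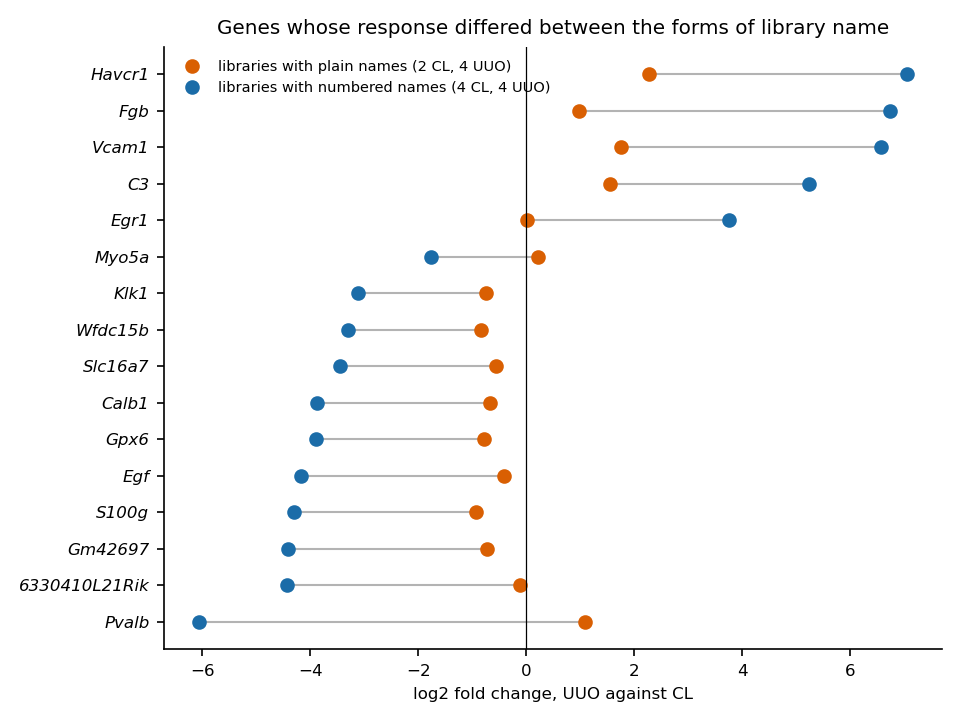
Log2 fold change of UUO against CL in knockout libraries with plain names (2 CL, 4 UUO) and with numbered names (4 CL, 4 UUO), for 16 of the 18 genes whose response differed between the forms; the other two were not tested in the first set. Lines join the values of 1 gene; Pvalb lies at 1.09 and -6.05, and Havcr1 at 2.27 and 7.04.

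Whether the knockout changed the response was tested directly against the wild type. Of 11916 genes 1 differed (0.00839%), Smpdl3b, which encodes a lipid-modifying phosphodiesterase of the cell surface (chr4:132732966-132757252). It was at 0 to 4.58 CPM in knockout CL and 5.78 to 85.6 CPM in knockout UUO kidneys, and at 0 to 31.8 CPM in wild-type CL and 6.32 to 40.3 CPM in wild-type UUO kidneys. The wild-type CL plain libraries held 0 to 5.68 CPM and numbered libraries 10.2 to 31.8 CPM, and the highest knockout values were H_7 and H_8. The response was larger in the knockout by 4.86 on the log2 scale (SE 0.77, adjusted p = 0.00187). Smpdl3b was not called without the 8 libraries of numbers 3, 4, 7 and 8, without the name form covariate (adjusted p = 0.566) or with the library number as a block (adjusted p = 0.452). Clu, a secreted chaperone and injury marker, followed without passing the test, at 241 to 429 CPM in wild-type CL and 1070 to 3170 in wild-type UUO kidneys, against 369 to 1220 and 1050 to 2130 CPM in the knockout (-1.36, SE 0.29, adjusted p = 0.0872). In the tubular injury panel, to which Clu belongs, DESeq2 called 1 gene, as did the fit of genes with at least 1 count. Haus8, Tmem47 and Pde2a had the same adjusted p of 0.0872 and did not pass.

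Matrix gene lists had lower median fold changes in the knockout than in the wild type, without a member passing the test across all genes. In the wild type 14 of 14 ECM modification genes rose (median 1.86), with 16.6% of all 10909 genes higher and 18.1% lower there. At an unadjusted p under 0.05 the difference was negative for 9 of the 14 (median -0.95) against 3.5% of all genes (3.31% positive), and none was called after adjustment. With genes of at least 1 count 5 of the 14 were called, and with plain libraries alone 1 of 13. Fn1 had the largest of these (-1.54, SE 0.39, adjusted p = 0.314), with a log2 fold change of 3.14 in the wild type and 1.52 in the knockout. Col1a2 stood at 2.84 and 1.38. The count was 6 of 14 without B8 (3.81% of all genes), 3 of 14 with numbered libraries alone (3.44%), 8 of 13 with the others alone (4.19%) and 3 of 14 without the 8 libraries of numbers 3, 4, 7 and 8 (1.39%). Matrix proteases and inhibitors had 2 of 17, and interstitial collagens and crosslinking enzymes 7 of 22 with 1 positive. Matrix glycoproteins and proteoglycans had 10 of 21 (median -1.06), basement membrane 9 of 22, contractile and mesenchymal genes 8 of 21 and proliferation 9 of 32. Without the 8 libraries of numbers 3, 4, 7 and 8 the counts from glycoproteins to proliferation were 5 of 19, 2 of 22, 1 of 21 and 1 of 31. Without G_3 alone the last 3 were 5, 3 and 5. With Xist as a covariate (2.1% of all genes) the ECM modification count was 7 of 14. The glycoprotein, basement membrane and contractile counts were then 7 of 21, 3 of 22 and 3 of 21. With the library number as a block (1.76%) these counts were 3 of 14, 6 of 21, 3 of 22 and 1 of 21. Among numbered CL libraries Xist was above Y-linked genes in G_2 and G_3 of the knockout and in none of the wild type. The tubular injury panel had 1 of 8, Clu (median -0.21, but 0.14 without B8, 0.18 with numbered libraries alone and -0.98 with plain ones alone), the endothelial panel 2 of 10, Pecam1 and Cdh5 (median -0.57), and nephron segment lists had medians from -0.28 to 0.26. The endothelial count changed with the setting: it was 8 of 10 (median -1.02, 4.95% of all genes) without libraries holding both Xist and Y-linked counts, a setting chosen after seeing the data. It was 0 of 10 without the 8 libraries of numbers 3, 4, 7 and 8 (median -0.01), without normalisation factors, with Xist as a covariate, and with the library number as a block (median -0.04). It was 0 of 8 with plain libraries alone, where the median was 0.34, and 5 of 10 with genes of at least 1 count. None of the 10 was called after adjustment in these settings. B8 was the highest knockout CL library for Col1a1, Col3a1 and Fn1.

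**Figure D5:**
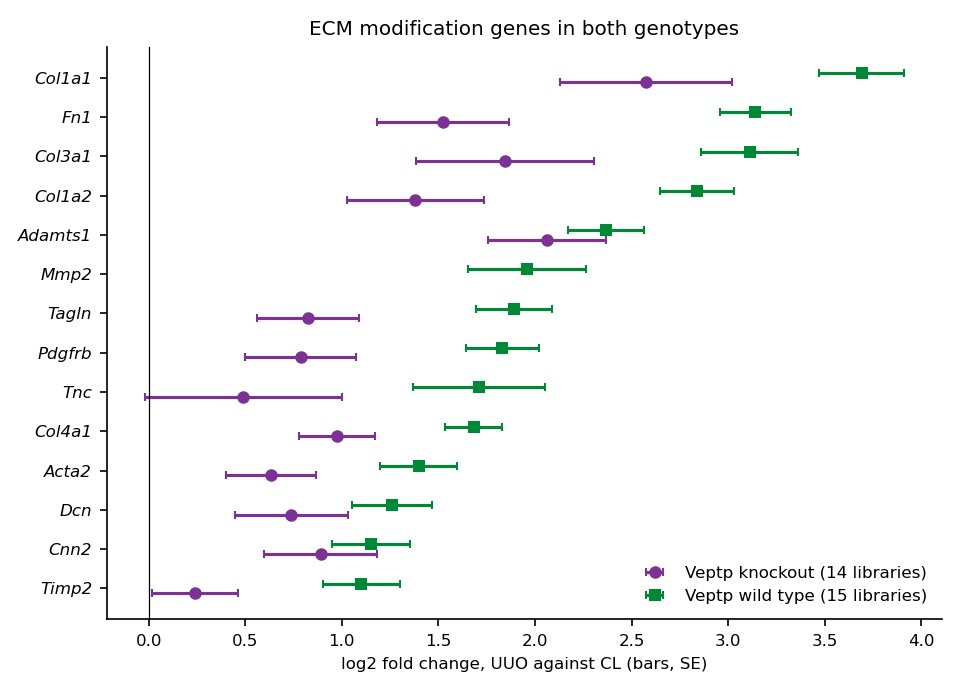
Log2 fold change of UUO against CL for 14 genes of ECM modification in Veptp knockout (14 libraries) and wild type (15 libraries); bars give the SE. Each gene has a higher value in the wild type, Fn1 at 3.14 against 1.52, and Mmp2 was not tested in the knockout.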

How the data were processed

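Whole-kidney RNA was sequenced by the study, and the submitters' processing notes name STAR 2.7.3a, UMI-tools 1.1.4, featureCounts of Subread 1.4.6-p5 and genome build mm10. The deposited table holds raw counts of 32245 genes in 75 libraries, for which the authors merged replicate wells; the strand setting is not given in the sources used here. Of these, 14 VeKO and 15 VeWT libraries were used. Other per-sample columns numbered 0.

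The count model was edgeR 4.0.16, run under R 4.3.3 together with limma 3.58.1. Genes were filtered with filterByExpr (minimum count 10, minimum total 15), normalised by TMM, and tested by glmQLFit and glmQLFTest with name form as covariate and Benjamini-Hochberg adjustment over all genes tested (threshold 0.05). The difference between genotypes was an interaction over 29 libraries, and that between name forms an interaction over 14. The study's methods name edgeR's exact test, used here as an alternative, as was DESeq2 1.42.0. The procedure was tested on simulated data. Totals of 178137 to 2341800 counts limit the precision of low genes. The labels do not tie libraries to separate mice, so p-values measure the spread between these libraries. No 2 libraries agreed within counting noise.

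Named genes were Ptprb, up to 12 largest rises and 12 largest falls among genes called also without B8 with a mean of at least 10 CPM, up to 4 members of each list by adjusted p and members against the majority, and the genes of lowest p in the genotype and name form differences. A gene that the rule names is not reported here. Other list members were named after their values were seen. Members and lists were chosen with earlier results of these data known.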

Additional observations from a re-analysis of the deposited data

Results flagged for a closer look

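In 48 of 300 groups of values looked at, 1 library stood apart from the rest of its group: its gap to the nearest library, as a share of the group's whole range, was above Dixon's limit. For independent, normally distributed values about 1 of 20 groups would pass that limit. CPM are not such values, the groups share libraries, and their genes were chosen for the text. Each of the 48 was the highest of its group, and the count cannot be set against that rate. The CL library B8 was the highest in 29 of the 48, with shares of 0.792 for Gm43109, 0.9 for Krt20, 0.771 for Cd44, 0.866 for Ccl2, 0.955 for Havcr1, 0.846 for Fgb, 0.923 for Vcam1, 0.792 for Cxcl1, 0.787 for Tnfrsf12a, 0.626 for Anxa3, 0.89 for Lcn2, 0.832 for Clu, 0.781 for Col3a1, 0.657 for Tgfbi, 0.672 for Fbn1, 0.722 for Spp1, 0.966 for Timp1, 0.917 for Ctss, 0.751 for Klf4, 0.661 for Ccr2, 0.844 for Mrc1, 0.888 for Cxcl10, 0.634 for Fga, 0.659 for Atf3, 0.637 for H2-DMa, 0.81 for H2-Aa, 0.671 for H2-Ab1, 0.639 for Psmb9 and 0.668 for Slc25a24. The other shares were 0.554 for Ccl2 (H_1, highest in UUO kidneys), 0.682 for S100g (E7, highest in CL kidneys), 0.551 for Tnfrsf12a (H_1, highest in UUO kidneys), 0.638 for Fn1 (H_2, highest in UUO kidneys), 0.655 for Col8a1 (C8, highest in UUO kidneys), 0.536 for Tgfbi (C8, highest in UUO kidneys), 0.658 for Emcn (G8, highest in UUO kidneys), 0.542 for Cxcl12 (G8, highest in UUO kidneys), 0.536 for Cdk1 (D8, highest in UUO kidneys), 0.72 for Gbp2 (G_2, highest in CL kidneys), 0.575 for Oas1a (H_2, highest in UUO kidneys), 0.65 for Slc22a8 (E9, highest in UUO kidneys), 0.742 for Ppp1r1a (E7, highest in CL kidneys), 0.594 for Slc8a1 (E9, highest in UUO kidneys), 0.536 for Rhcg (E9, highest in UUO kidneys), 0.782 for Atp6v0a4 (E7, highest in CL kidneys), 0.669 for Acaa2 (E7, highest in CL kidneys), 0.549 for Acaa2 (E9, highest in UUO kidneys) and 0.635 for Psmb9 (D8, highest in UUO kidneys).

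The response to UUO differed between genotypes for Smpdl3b, by 4.86 on the log2 scale (knockout minus wild type). Between the forms of library name (numbered minus plain) the log2 differences were -6.97 for Pvalb, 3.78 for Egr1, -2.41 for Wfdc15b, -3.70 for Egf, -4.23 for 6330410L21Rik, 5.77 for Fgb, 4.81 for Havcr1, -3.33 for S100g, -2.82 for Slc16a7, -3.15 for Calb1, -2.32 for Klk1, -3.05 for Gpx6, 3.01 for Pklr, -3.62 for Gm42697, -3.67 for Slc4a1, -1.93 for Myo5a, 4.86 for Vcam1 and 3.76 for C3. Without B8, Pvalb was still called among these 18, and Vcam1 took the opposite sign (-4.59).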

How the results depend on the processing

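Of 140 called genes examined singly, 128 kept the call with every single library left out. For UUO against CL the counts of higher and lower genes were 1396 and 499 without normalisation factors, 264 and 202 without the name form covariate, 361 and 271 by edgeR's exact test, which has no covariate, 249 and 255 with libraries thinned to 178137 counts, 155 and 68 without G_3, G_4, H_7 and H_8, and 0 and 0 in plain libraries alone. With genes of at least 1 count 1337 were higher, with all 29 libraries in 1 fit 1270 were higher, and with Xist as a covariate 1322 were lower. Leaving out single libraries gave 544 to 997 higher and 508 to 1065 lower. The cause of these changes was not tested. Settings in which libraries were left out or thinned also had fewer samples or counts.

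For the genotype difference DESeq2 called 1 lower gene, genes of at least 1 count gave 73 higher and 76 lower, and plain libraries alone 0 and 2. No higher gene (0) was called without the covariate, thinned, without the 8 libraries of numbers 3, 4, 7 and 8, or with the replicate block. Leaving out single libraries gave 1 to 1 higher and 0 to 6 lower (6 without G_4, 4 without G_1 or H_2, 2 without H_1).

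For the name form difference the counts higher and lower were 21 and 29 by DESeq2, 16 and 31 with genes of at least 1 count, 11 and 28 with Xist as a covariate, 0 and 1 without B8, 0 and 1 without G_3, G_4, H_7 and H_8, and 0 and 2 without libraries with both Xist and Y genes, a setting chosen after seeing the data. Lower genes were 7 without normalisation factors and 6 thinned, and higher genes 3 with legacy dispersions. Leaving out single libraries gave 0 to 27 and 1 to 22.

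In plain libraries alone 96 of the 140 called genes had a value, of which 93 lost the call in the same direction and 3 changed sign, Pcolce (0.19), Esrra (0.071) and Pvalb (1.09). Ptprb (0.47) and Kdr (0.39), which were not called, and Myo5a (0.22), examined for its name form difference, also changed sign. Same-numbered libraries correlated in their deviations from group means at 0.0632 to 0.438, over 0.1 in 7 of 8 numbers, and in 4 of 8 the CL library correlated best with its own number. As number 5 was below 0.1 and no label ties a number to a mouse, the numbers were not taken as pairs, although sex-linked genes matched in 8 of 8. With the number as a replicate block 789 genes were higher and 906 lower, and the block ended no call among the 140. Of genes with a lower response in the knockout at an unadjusted p under 0.05 (1.76% of all genes), the block left 3 of 14 ECM modification, 3 of 22 basement membrane, 6 of 21 matrix glycoprotein, 1 of 21 contractile and 0 of 32 proliferation genes.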
